A study of Mus musculus with 20 samples.

Results

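Enzymes that make or remodel lipids were represented by 5 genes, Hmgcs1, Fads1, Mboat7, Dgkq and Sgpp2, out of 3731 genes with a site of RNA editing in cerebellum, hippocampus or cortex of the mouse brain. All rows that name one of them were taken from the 3 deposited site lists. They gave 54 positions out of 25978 in all, of which 34 were in the cerebellar list, 22 in the hippocampal list and 31 in the cortical list. The genes were chosen by values of these lists, that is the numbers and levels of their sites, which are therefore given as a description and were not tested.

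The mice carried APOBEC1-YTH, a tamoxifen-inducible fusion of the cytidine deaminase APOBEC1 to the YTH domain, which binds N6-methyladenosine (m6A). Cytidines beside a methylated adenosine are then read as uridine in RNA-seq, and the share of edited reads is called the editing level. Bulk poly(A) RNA came from 4 APOBEC1-YTH mice in each region, with the same 4 animal numbers in every region, and from APOBEC1-YTHmut mice that served as background for C-to-U edits, with 3 libraries of cerebellum, 2 of hippocampus and 3 of cortex. Both genotypes were injected with tamoxifen at 20 mg/kg, once per 24 h over 5 days, and were killed 7 days after dosing ended. The sources used here name neither the promoter of the transgene nor the strain or age. Each list holds 1 level per site for a region, with no value per animal, no read depth and no APOBEC1-YTHmut value, so no spread between mice could be given. Absence from a list does not show that a site lacked methylation, and RNA abundance, which bears on whether a site can be listed, was not measured in these files.

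The 5 enzymes act at separate points of lipid metabolism. Brain makes its own cholesterol, because plasma lipoproteins do not cross the blood-brain barrier, and Hmgcs1 encodes the cytosolic synthase that forms HMG-CoA at the start of the mevalonate pathway. Fads1 encodes the desaturase that completes arachidonic acid, Mboat7 the acyltransferase that places arachidonic acid into phosphatidylinositol, and Dgkq the theta isoform of diacylglycerol kinase, which turns diacylglycerol released from phosphoinositides into phosphatidic acid. Sgpp2 encodes a phosphatase of the endoplasmic reticulum that removes the phosphate of sphingosine-1-phosphate.

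The sequence at listed sites could be read for a small part of the lists. Of all listed positions, 63 in 34 genes lay inside the RefSeq promoter windows of the same build (GRCm38.p6, equal to mm10), where the base could be read, and none of them belonged to the 5 genes. The listed base was a cytidine at 63 of 63, and the base before it was adenosine at 63 of 63. At the 62 positions with enough flanking sequence a purine preceded that adenosine in all 62, whereas 9.13% of all cytidines in 32851 promoter windows, both strands counted, follow a purine and an adenosine. Whether the site calling kept only this context is not stated in what was used here, so these counts may follow from the calling. Sites of 2 other lipid genes were among the 63 positions and show this context. They are Abhd6, which encodes a lipase that hydrolyses monoacylglycerols (chromosome 14, + strand), and Cers1, which encodes a ceramide synthase (chromosome 8, + strand). The capitals mark the purine, the adenosine and the listed cytidine.
Abhd6, chr14:8055695-8055710: aaacctGACacagtaa
Abhd6, chr14:8055703-8055718: cacagtAACcactctc
Cers1, chr8:70329726-70329741: ccctagGACaatagcc
The first Abhd6 site had a level of 5.56% in cerebellum, 3.12% in hippocampus and 5.8% in cortex. The second was listed in cortex alone, at 2.5%, and the Cers1 site in hippocampus alone, at 1.54%. Sequence around the sites of the 5 genes themselves was not analysed here.

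The first question was where the sites of the 5 genes lay and in which regions. Of the 54 positions, 9 were listed in all 3 regions, 15 in 2 and 30 in 1. The positions of 1 region alone numbered 17 in cerebellum, 15 of which belonged to Sgpp2, 3 in hippocampus and 10 in cortex. Counted back along the genome from the 3′ end that the annotation gives a gene, positions lay at 45 to 8133 nt, with a median of 1527.5 nt. Every position lay within the annotated span of its gene; the annotation used gives no exons, so positions were not assigned to coding sequence or untranslated regions.

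**Figure D1:**
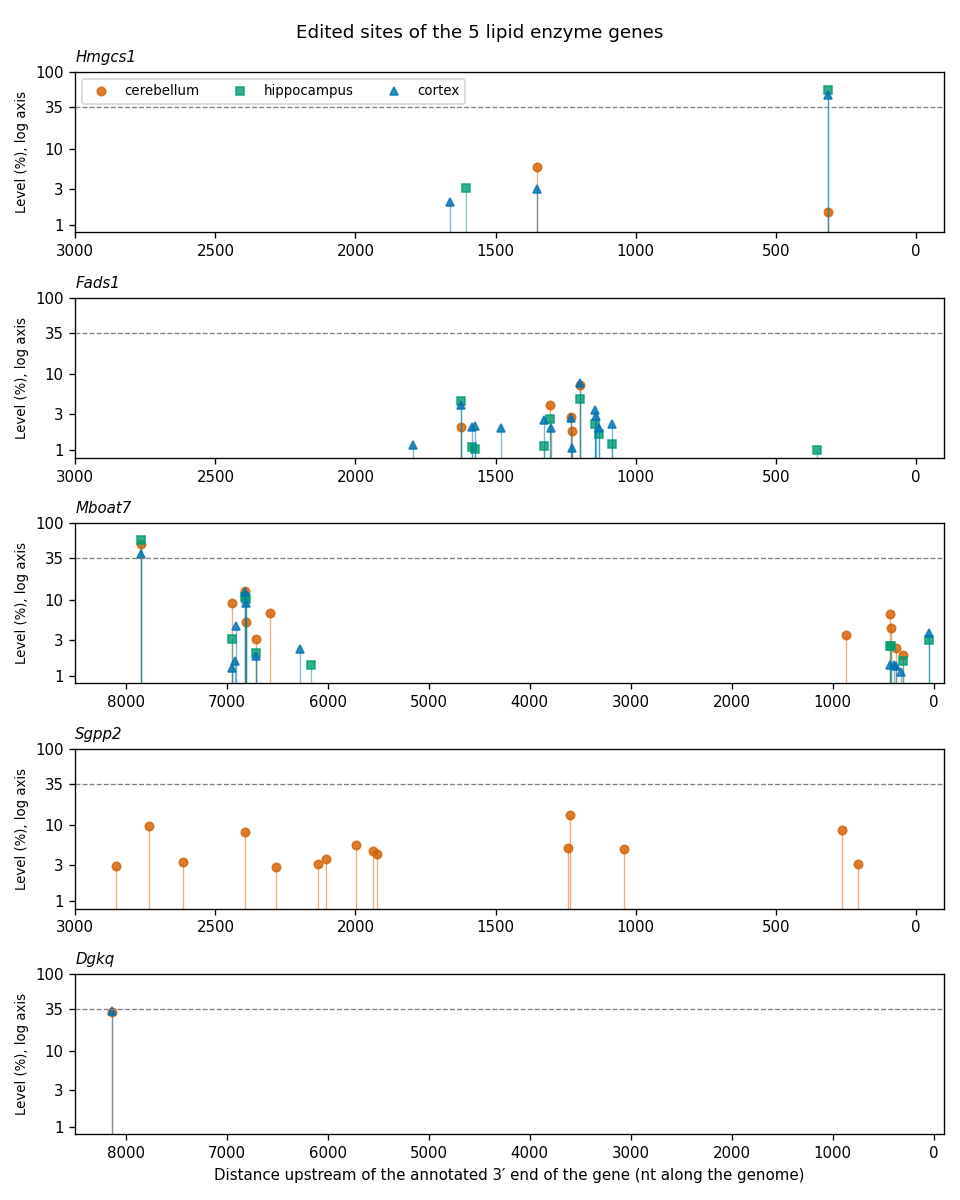
Editing level (percent, log axis) of each listed site against its distance upstream of the annotated 3′ end of the gene (nt), for 5 genes, with circles for cerebellum, squares for hippocampus and triangles for cortex; the dashed line marks 35%. Fads1 sites form 1 dense group, Mboat7 sites fall into 2 groups and a single strong site, and Sgpp2 has circles alone.

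Levels of 35% or more were reached at 2 positions, 1 in Hmgcs1 and 1 in Mboat7, which gave 1 of 34 sites of the 5 genes in cerebellum, 2 of 22 in hippocampus and 2 of 31 in cortex. Among all listed sites the share at 35% or more was 1.48% in cerebellum, 0.973% in hippocampus and 1.33% in cortex; since such levels were part of the choice of genes, nothing is read from the difference. The member level just above the limit was 39.8% (Mboat7, cortex), and the levels just below it were 33.3% and 32% (Dgkq, cortex and cerebellum). The next level under these was 13.4%, at an Sgpp2 site. The median level over all sites of the 5 genes was 4.405% in cerebellum, 2.455% in hippocampus and 2.24% in cortex, beside 3.36%, 2.82% and 2.91% over all sites of those lists.

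Hmgcs1, at the head of cholesterol synthesis (gene ID 208715; mm10 chromosome 13, 119690351 to 119708260, + strand), held the position with the widest difference between regions. At position 119707946, 314 nt upstream of the 3′ end, the level was 1.49% in cerebellum, 59.2% in hippocampus and 50.4% in cortex. The cerebellar level was lower than the hippocampal one by a log2 ratio of -5.31 and lower than the cortical one by -5.08, and the log2 ratio of hippocampus to cortex was 0.23. The highest of these levels was 39.7 times the lowest, and among the 4942 positions listed in all 3 regions this was the widest span, reached by 1 position. The 1.49% in cerebellum is close to 1%, the lowest level in that list. Levels were also part of the choice of genes, so the rank is a description only. Without values per mouse the difference could not be tested, and in bulk tissue a lower edited share per transcript and a different mix of cells cannot be told apart.

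The other Hmgcs1 sites were weak and lay more than 1 kb further upstream. Position 119706909 had a level of 5.83% in cerebellum and 3% in cortex and was not listed in hippocampus. Position 119706656 was listed in hippocampus alone, at 3.06%, and position 119706596 in cortex alone, at 2%. Within this gene the regional order thus differed between sites: the position near the 3′ end was lowest in cerebellum, and the shared position upstream of it was higher in cerebellum than in cortex. The strong site was 1037 nt from its nearest listed neighbour.

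Positions listed in all regions whose levels were most like those of the strong Hmgcs1 site were far from it even so. The nearest by Euclidean distance on log2 levels, over 4941 other positions, were in Tef at a distance of 2.16 (1.35% in cerebellum, 19.0% in hippocampus and 19.1% in cortex), Igfbp5 at 2.26 (2.42%, 18.3% and 20.3% in those regions) and Camkk2 at 2.57 (1.49%, 12.7% and 20.7%). All 3 had a cerebellar level under 3% with forebrain levels above 10%, a pattern that follows from picking them by likeness of level. By site number, 16 genes had the same 2 cerebellar, 2 hippocampal and 3 cortical sites as Hmgcs1, and the closest of them in mean level were Mark4, Itprid2 and Eif2ak1.

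Fads1, the desaturase gene (gene ID 76267; mm10 chromosome 19, 10182877 to 10196874, + strand), carried many weak sites close together. It had 5 sites in cerebellum, 10 in hippocampus and 14 in cortex, at 16 positions, and 29.9%, 14.8% and 10.7% of the genes in those lists had as many sites or more. All but 1 of the positions lay between 10195081 and 10195789, and 13 of 16 had another Fads1 site within 50 nt. The exception, position 10196522, was 352 nt from the 3′ end and was listed in hippocampus alone at 1.02%.

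No Fads1 level reached 10%. Levels ranged from 1.79% to 7.14% in cerebellum (mean 3.54% ± 2.18, SD over 5 sites), from 1.02% to 4.78% in hippocampus (mean 2.13% ± 1.42, SD over 10 sites) and from 1.09% to 7.57% in cortex (mean 2.68% ± 1.60, SD over 14 sites). These SDs describe the spread between sites, not between mice. The strongest site in every region was position 10195677, with 7.14% in cerebellum, 4.78% in hippocampus and 7.57% in cortex. The other position found in all regions, 10195250, had 2.05% in cerebellum, 4.48% in hippocampus and 3.96% in cortex. The first of these positions was lowest in hippocampus and the second was lowest in cerebellum.

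Hippocampal levels of Fads1 lay below cortical ones at 7 of the 8 positions shared by these regions, with means of 2.21% in hippocampus and 3.22% in cortex and a median log2 ratio of -0.76. At 1 of the 8, position 10195547, the level was lower by 2-fold or more, with 1.16% in hippocampus and 2.48% in cortex. Across all 9379 sites shared by hippocampus and cortex the median log2 ratio was -0.02. Of these sites, 48.4% were higher in hippocampus and 8.17% were lower there by 2-fold or more. The 8 positions lie close together in 1 gene, so they are not independent. Several of their hippocampal levels, the lowest at 1.05%, lay close to 1%, the lowest level in that list. The 4 positions shared by cerebellum and cortex were split, 2 higher and 2 lower in cerebellum, with a median log2 ratio of -0.02. Genes closest to Fads1 in site number, by Euclidean distance on log2(number + 1) over the 3 regions, were H1f0 (6 sites in cerebellum, 10 in hippocampus and 15 in cortex), Eif4g3 (5, 9 and 12 in those regions) and Arl8b (5, 12 and 13).

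Mboat7, which acylates lysophosphatidylinositol (gene ID 77582; mm10 chromosome 7, 3677789 to 3693189, - strand), had sites of several strengths in all regions: 11 in cerebellum, 10 in hippocampus and 13 in cortex, at 18 positions. The strongest, position 3685643, lay 7854 nt upstream of the 3′ end and 909 nt from its nearest listed neighbour. Its level was 52.9% in cerebellum, 60% in hippocampus and 39.8% in cortex, and it was the member position that reached 35% in every region. The levels differed by at most 1.51 times, and 3603 of the 4942 positions listed in all regions spanned as much or more. In its list this site ranked 39th from the top in cerebellum, 6th in hippocampus and 201st in cortex. Positions most like it were in Ttyh2 (51.5% in cerebellum, 61.9% in hippocampus and 36.1% in cortex), Cc2d1a (52.3%, 52.9% and 43.4% in those regions) and Ift46 (59.3%, 66.7% and 40%).

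The remaining Mboat7 sites formed 2 groups separated by over 5 kb of genome. A group of 9 positions lay 6166 to 6945 nt from the 3′ end, with mean levels of 7.41% in cerebellum, 5.46% in hippocampus and 4.70% in cortex. A group of 8 lay 45 to 868 nt from the 3′ end, with mean levels of 3.69% in cerebellum, 2.35% in hippocampus and 1.78% in cortex. Each mean is over the positions listed in that region, which are not the same positions throughout. The gene with the most similar site numbers was Extl2, with 11 in cerebellum, 9 in hippocampus and 13 in cortex, followed by Glg1 and Fam168b.

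At single Mboat7 positions the regional pattern was not uniform. Position 3684734, in the upstream group, had a level of 9.09% in cerebellum, 3.08% in hippocampus and 1.28% in cortex, and of the 4942 positions listed in all regions 36 had a span as wide or wider. Position 3678225, in the group near the 3′ end, followed the same order, with 6.52% in cerebellum, 2.46% in hippocampus and 1.39% in cortex, and 171 of the 4942 spanned as much. A pair of positions 7 nt apart differed from these: 3684606 had 13.1% in cerebellum, 10.8% in hippocampus and 12.4% in cortex, and 3684599 had 5.08% in cerebellum, 10.1% in hippocampus and 9.09% in cortex. The first of the pair was within 1.22 times across regions, and the second was lowest in cerebellum.

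Over the shared positions of Mboat7, the cerebellar level was the higher one at 6 of 8 against hippocampus and at 6 of 7 against cortex, with median log2 ratios of 0.45 and 0.77. Of all sites shared by those pairs, 51.9% and 52.6% were higher in cerebellum, with median log2 ratios of 0.04 and 0.06. The Mboat7 level was higher in cerebellum by 2-fold or more at 2 positions in either comparison, 3684734 and 3678225. The share of all shared sites with such a difference was 15.2% of 5688 against hippocampus and 15.1% of 6627 against cortex. The hippocampal level was above the cortical one at 5 of 7, with a median log2 ratio of 0.15. Of all 9379 sites shared by hippocampus and cortex, 48.4% were higher in hippocampus, with a median log2 ratio of -0.02. The comparisons use the same 3 lists and are not independent of each other.

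Dgkq, the diacylglycerol kinase gene (gene ID 110524; mm10 chromosome 5, 108647044 to 108660830, - strand), had a single position, 108655177, which lay 8133 nt upstream of the 3′ end. Its level was 32% in cerebellum and 33.3% in cortex, a log2 ratio of -0.06, and it was not listed in hippocampus. It thus stayed under the limit of 35% in both lists. Dgkq was alike in site number to 91 genes with 1 cerebellar, 0 hippocampal and 1 cortical site, of which Sgsm1 (36.1% in cerebellum and 35.4% in cortex), Frmd5 (32.5% and 40.5% in those regions) and Hif1a (34.6% and 38.9%) were closest in level. The spans of Idua and Tmem175 overlap that of Dgkq but do not reach this position.

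Sgpp2, the sphingosine-1-phosphate phosphatase gene (gene ID 433323; mm10 chromosome 1, 78309549 to 78420289, + strand), was listed in cerebellum and in neither of the other regions. Of the 2228 genes in the cerebellar list, 289 (13.0%) had no site in hippocampus or cortex; their median was 1 site, and 8 of them, Sgpp2 included, had 15 or more. The 15 Sgpp2 sites lay between 208 and 2854 nt upstream of the 3′ end, while the annotated gene spans 110741 nt. For a gene missing from the lists of 2 regions, fewer cells of a type, less RNA per cell, less methylation and lower read depth cannot be told apart here. None of these was tested. The mean level of the Sgpp2 sites was 5.52% ± 3.09 (SD over 15 sites).

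The strongest Sgpp2 site was position 78419054 at 13.4%, 5 nt from a site at 5%. Levels of 9.68%, 8.57% and 8.16% followed at positions 78417553, 78420026 and 78417895. A further 2 sites, 78418291 at 5.56% and 78419049 at 5%, reached 5%, and the other 9 lay between 2.86% and 4.82%. Strong and weak sites were thus interspersed along the stretch, and 6 of 15 had another site within 50 nt. At 11 of the 15 positions the span of Farsb, annotated on the - strand, overlaps Sgpp2; the lists place all 15 on the + strand, the library kit was directional, and Farsb itself had 0 sites in each list. Genes with a site number like that of Sgpp2 were Pcsk6 with 14 cerebellar sites, and Steap2 and Ppp1r17 with 13 each; all had 0 in hippocampus and cortex.

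**Figure D2:**
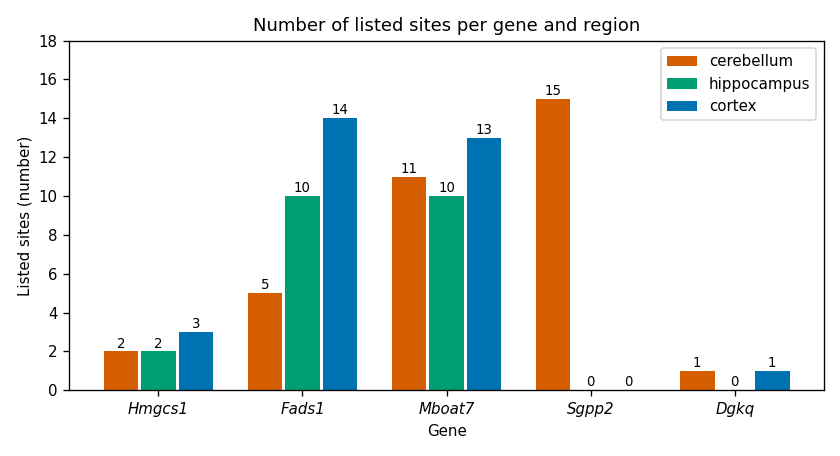
Number of listed sites (bars, from 0) of each gene in cerebellum, hippocampus and cortex. Sgpp2 has 15, 0 and 0 sites in those regions and Fads1 has 5, 10 and 14, while Mboat7 has 11, 10 and 13.

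The next question was how levels compared between regions where a site was listed in both. Cerebellum and hippocampus shared 12 positions of the 5 genes, of which 8 were higher in cerebellum, 2 of them by 2-fold or more, and 2 were lower by 2-fold or more. Of all 5688 sites these regions shared, 51.9% were higher in cerebellum at all, 15.2% were higher by 2-fold or more and 11.4% lower by 2-fold or more. Cerebellum and cortex shared 14 positions, of which 9 were higher in cerebellum, 2 by 2-fold or more, and 1 was lower by 2-fold or more, beside 52.6%, 15.1% and 12.0% of 6627 shared sites. Scaling the lists to the same median level shifts the log2 ratio of cerebellum to cortex by 0.21. After it, 7 of these 14 were higher in cerebellum and 3 were lower by 2-fold or more. The shift applies to all shared sites too, and their shares above are unscaled, so the scaled counts have no like share beside them. Hippocampus and cortex shared 16 positions, of which 7 were higher in hippocampus, 1 by 2-fold or more, and 1 was lower by 2-fold or more, beside 48.4%, 7.37% and 8.17% of 9379.

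The median log2 ratio over the shared member positions was 0.43 for cerebellum to hippocampus, 0.25 for cerebellum to cortex and -0.25 for hippocampus to cortex, beside 0.04, 0.06 and -0.02 over all shared sites. With the lists scaled to the same median level, the first 2 of these member medians were 0.18 and 0.038. Scaling lowers the medians over all shared sites by the same amounts, 0.25 and 0.21. The distance between member and all-site medians is therefore unchanged by it, and the all-site medians given above are unscaled. Positions missing from 1 list of a pair do not enter these ratios. The differences came from different genes: Mboat7 held both positions that were 2-fold higher in cerebellum, Hmgcs1 held the lowest ratios in cerebellum, and Fads1 held most positions that were lower in hippocampus than in cortex.

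**Figure D3:**
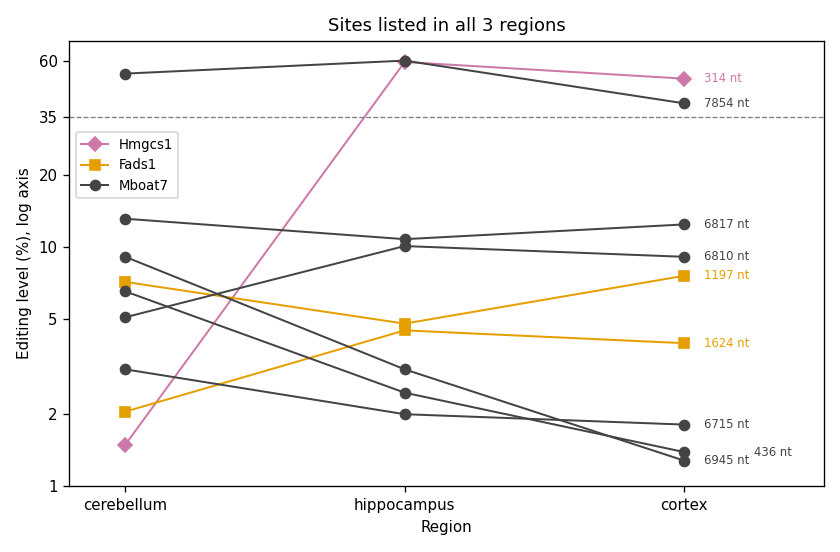
Editing level (percent, log axis) in cerebellum, hippocampus and cortex at the 9 positions listed in all 3 regions, 1 line a position, labelled by its distance from the 3′ end (nt); the dashed line marks 35%. The Hmgcs1 line stands at 1.49% in cerebellum and above 50% in hippocampus and cortex, while the strong Mboat7 line stays above 35% throughout.

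Spacing was compared with the level. Of the 54 positions, 30 had another listed site of the same gene within 50 nt, and neither of the 2 positions at 35% or more was among them. Over all positions, 13.0% of the 284 with a highest level of 35% or more and 59.8% of the 25694 others had such a neighbour. The median distance to the nearest site of the gene was 851 nt for the 284 sites, 79 of which were the sole site of their gene and have no such distance, and 31 nt for all sites. The distances of 1037 nt for Hmgcs1 and 909 nt for Mboat7 lie near that median. Of the 18 Mboat7 positions, 11 weaker ones had a neighbour within 50 nt. The strong position and the remaining weaker ones did not. In Hmgcs1, 0 of 4 positions had such a neighbour, so weak sites also stood apart.

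**Figure D4:**
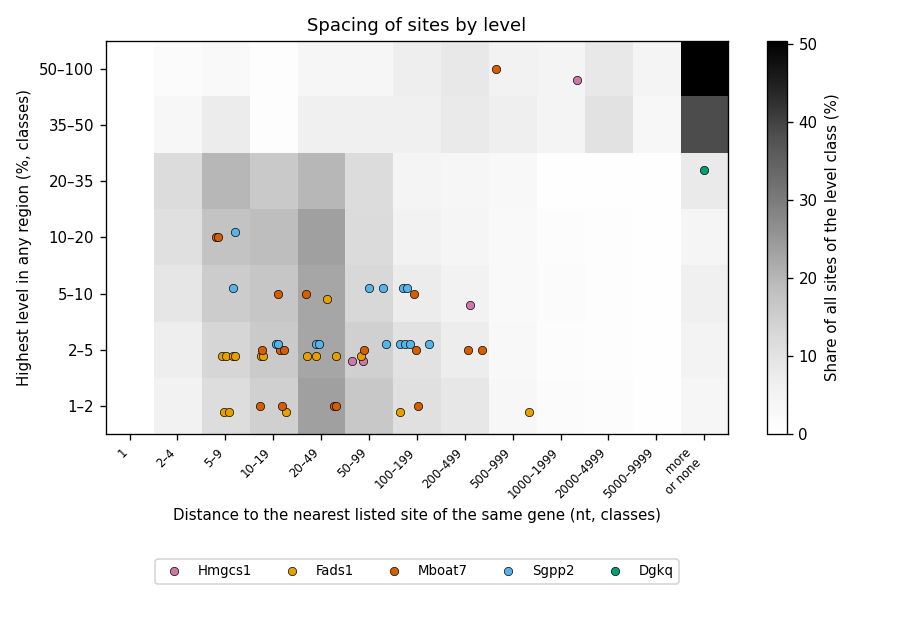
Distance to the nearest listed site of the same gene (nt, in classes; the last class holds longer distances and genes with 1 site) against the highest level in any region (percent, in classes). Shading gives the share of all sites of a level class, and points are positions of the 5 genes, spread within their class. The strong Hmgcs1 and Mboat7 sites sit to the right of the weaker sites of the same genes. Some weaker Mboat7 sites lie in the class next to that of the strong one.

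Other genes of the same pathways were taken from 5 lists. Of all 3731 genes with a site, 59.7% had one in cerebellum, 68.3% in hippocampus and 84.8% in cortex. For cholesterol synthesis and its SREBP control, 11 of 28 genes had a site in any region, 8 of the 11 in cerebellum, 5 in hippocampus and 9 in cortex. Msmo1, a sterol demethylation enzyme gene, had 1 site in cerebellum, 4 in hippocampus and 4 in cortex, with means of 3.88%, 3.20% and 3.51% in those regions. Srebf2, which encodes the main transcription factor of sterol synthesis genes, had 2, 4 and 2 sites in the same order of regions, with a highest level of 3.03% in cerebellum, 17.5% in hippocampus and 10.8% in cortex. Cyp51, the lanosterol demethylase gene, named here after its values were seen, had 1 site, in cortex alone, at 56.5% (chromosome 5, position 4082477). Among all 3731 genes, 242 (6.49%) had a site at 35% or more in some region.

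In the list of fatty acid synthesis, desaturation and elongation, 10 of 24 genes had a site, 8 of them in cerebellum, 8 in hippocampus and 8 in cortex, and none had a level of 35% or more. The stearoyl-CoA desaturase genes led it beside Fads1. Scd2 had 16 sites in cerebellum, 19 in hippocampus and 17 in cortex, with highest levels of 19.0%, 16.5% and 19.7%, and Scd1 had 7, 6 and 15 sites in those regions. Hacd3, an elongation cycle dehydratase gene, had 5, 2 and 5.

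Of 20 genes listed under phospholipid acyl-chain remodelling, 8 had a site, 5 of them in cerebellum, 7 in hippocampus and 7 in cortex. The list was drawn broadly and also holds acyltransferase genes of phosphatidic acid synthesis, which are Gpam and the Gpat and Agpat genes. Agpat3, a lysophosphatidic acid acyltransferase gene, had 33 sites in cerebellum, 23 in hippocampus and 32 in cortex. Lpgat1, a lysophospholipid acyltransferase gene, had 43, 6 and 15 sites in those regions, and Agpat1 had 6, 7 and 6. Mboat7 held the sole position at 35% or more in this list; the highest level of another gene was 17.0%, at Agpat1 in cortex.

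Of 32 sphingolipid genes, 7 had a site, and Sgpp2 accounted for 15 of the list's 22 cerebellar sites. The list held 7 sites in hippocampus and 8 in cortex. Degs1, which encodes the desaturase that forms ceramide, had 4 sites in cerebellum, 2 in hippocampus and 2 in cortex, Cers1 had 2, 2 and 3 in those regions, and Sptssa, a small subunit of serine palmitoyltransferase, had 1 in each. Of the 10 diacylglycerol kinase genes, 5 had a site. Dgke had 0 sites in cerebellum, 3 in hippocampus and 13 in cortex, Dgkb had 0, 5 and 5, Dgkg 4, 4 and 0, and Dgkz 2, 1 and 3. None of these 4 exceeded 10%, so the Dgkq position at 32% in cerebellum and 33.3% in cortex was the highest of the family.

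**Figure D5:**
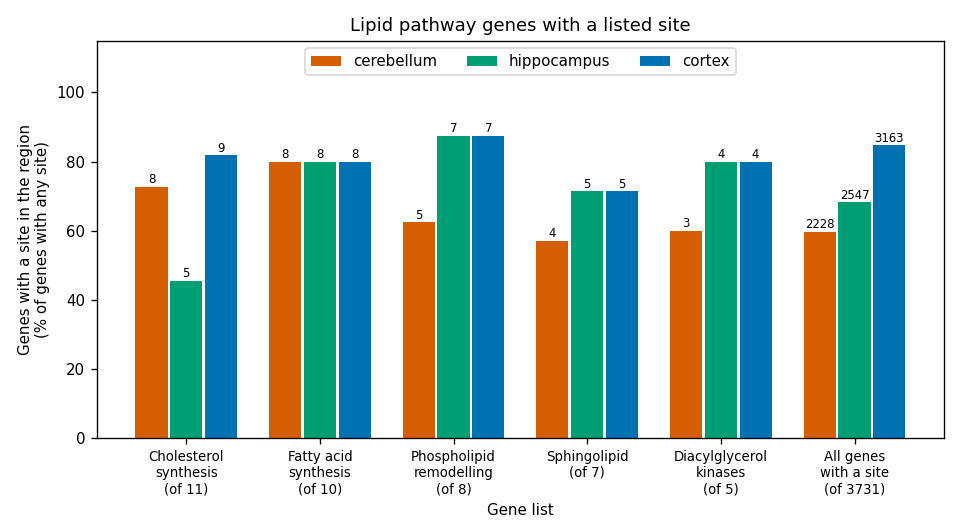
Share of genes with a listed site in cerebellum, hippocampus and cortex (percent of the genes of each list with a site in any region; numbers above bars count genes) for 5 lipid pathway lists and all 3731 genes. Shares of the small lists rest on 5 to 11 genes, and the bars of all genes stand at 59.7%, 68.3% and 84.8%.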

How the data were processed

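Poly(A) RNA-seq libraries were made from 900 ng of total RNA with a directional kit, per the labels' protocols, and the submitters' processing notes name mm10 as the build and STAR 2.7.5, an aligner. The APOBEC1-YTHmut libraries served as background for site calling, per the labels; the caller, its thresholds and how libraries were combined are not stated in what was used here. The authors deposited 1 list per region with 6 columns and no header. The deposited value is a fraction, read here as the share of edited reads in the APOBEC1-YTH libraries and printed as percent. Depth per library is unknown, so no interval was computed. No listed level was below 1%.

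Positions are 1-based. Gene spans, strands of neighbours and promoter sequence came from RefSeq GRCm38.p6. Sites were matched between lists at the same nucleotide, and groups of positions were split at gaps over 500 nt. With 1 value per region, no test was made; counting functions were checked on simulated data. The members and lists were chosen with earlier results of these data known. Named were all members, the 4 genes of each list with the most sites, and the 3 genes or sites most like a member; predicted and clone-named genes were left out of the last. A gene that the rule names is not reported here. Marker genes of the regions had sites as follows: 5 of 8 cerebellar markers in cerebellum, 1 in hippocampus and 3 in cortex; of 5 hippocampal markers, 1, 4 and 1 in the same order; of 5 cortical markers, 0, 1 and 3. Astrocyte markers had 3 of 4 with a site in each region, and oligodendrocyte markers 4 of 4. Software was Python 3.11.15 with pandas 2.3.3, numpy 2.4.6 and matplotlib 3.10.9.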

Additional observations from a re-analysis of the deposited data

How the results depend on the processing

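Of 39 alternative values for site counts and median levels of each region and for comparisons between regions, 22 stayed close to the reported number. Close meant within 1.5 times, or within 0.1 with the same sign for a median log2 ratio. The 22 included all counts of shared sites matched within 10 or 50 nt, and all counts after merging sites within 10 nt. Requiring a level of at least 5% left 15 member sites in cerebellum, 4 in hippocampus and 6 in cortex, with median levels of 8.16%, 34.99% and 22.9%. At least 10% left 4 in each region, with medians of 22.7%, 34.99% and 36.6%; both raise the median by construction. A limit of 30% in place of 35% gave 2 cerebellar and 3 cortical sites, adding Dgkq in both regions. A limit of 40% gave 1 cortical site, losing Mboat7. Scaling the lists to the same median shifts log2 ratios by 0.25 for cerebellum to hippocampus and 0.21 for cerebellum to cortex. It gave member median log2 ratios of 0.18 and 0.038, and 3 member sites lower by 2-fold or more in cerebellum than in cortex. The ratios of all shared sites shift by the same amounts. Among 24 alternative means of single genes, 10 moved by over 1.5 times, all in Hmgcs1 and Mboat7. Leaving out the position at 35% or more lowered their means, except that of Hmgcs1 in cerebellum, which was 5.83% without it and 3.66% with it, since that position is the weaker of the 2 there. No paired analysis was possible because each list holds 1 value per site for a region; for the same reason no library could be left out. Unknown depth limits every level.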
